A study of Caenorhabditis elegans with 3 samples.

Results

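RNA interference against csr-1 was compared with an empty vector control across all genes of the dissected germ line of Caenorhabditis elegans. All 45836 gene entries of the deposited table were considered, and the 5 summary rows that name no gene were left out. Of these entries, 11345 had enough reads to be tested, and 8 of the 12 libraries of the series carry the comparison. csr-1 encodes an Argonaute, a protein that uses short RNAs as guides. In the germ line it binds antisense 22G small RNAs made by RNA-dependent RNA polymerase on transcripts of germline-expressed genes, and it sits in part in P granules, the RNA-rich germ granules at the nuclear envelope. It is known for a role in chromosome segregation, for cleaving target transcripts and for marking germline genes as permitted for expression.

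All worms were of the wild-type strain N2 and were grown at 24 °C on Escherichia coli HT115 that makes double-stranded RNA. The controls received the vector L4440 with no insert, the csr-1 RNAi group received the csr-1 clone of the Ahringer library, and the third group received RNAi against P granule components. The study is known to have aimed that RNAi at the helicases glh-4 and glh-1 together with pgl-3 and pgl-1. Gonads were cut off at the bend from F1 young adult hermaphrodites, 400 to 500 germlines per replicate, and poly(A) RNA was read as single 100 bp reads from a kit that does not mark strand. Overlapping and antisense genes therefore cannot be told apart. Each group has 4 libraries named orig, 1, 2 and 3, and values are listed in that order. Feeding RNAi lowers a transcript without removing the gene, and each library is a pool of many animals. The p-values measure the spread between these libraries. Because these are bulk samples, fewer cells of a type and less RNA per cell cannot be told apart.

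The libraries held 18369939 to 31948734 reads in genes. The tissue label was checked against 14 germline markers, of which all 14 passed the filter, with a median control value of 10979 normalised reads. Their summed value ranged from 201452 to 266680 in the controls and from 222470 to 260680 under csr-1 RNAi, and 2 were called higher and 2 lower. Markers of other tissues were present at lower levels and none of those tested was called. The 13 sheath and spermatheca markers, all tested, summed to 16975 to 27068 in the controls and 9854 to 29012 under csr-1 RNAi, and the 8 intestine markers, of which 7 were tested, to 9139 to 50098 and 8666 to 43423. The 9 sperm markers, of which 8 were tested, differed between libraries of 1 group, from 240 to 1007 in the controls and from 240 to 6638 under csr-1 RNAi. The csr-1 RNAi library 3 stood apart from the other libraries of its group, with a chi-square per degree of freedom of 155.9 to 439.1 against them, where the other pairs of the group gave 21.3 to 115.2. Without it 797 genes were called higher and 823 lower.

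The targeted gene was low in every csr-1 RNAi library. csr-1 had 22790, 24116, 25470 and 21838 normalised reads in the controls and 6025, 3827, 3045 and 2445 under csr-1 RNAi. The groups did not overlap, and the difference was −2.70 ± 0.22 (SE) on the log2(value + 1) scale (limma adjusted p = 3.56e-05, n = 4 per group). Under P granule RNAi csr-1 stood between them, at 15757, 15005, 16887 and 14389 normalised reads.

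Under csr-1 RNAi 792 genes were called higher (6.98% of the 11345 tested) and 885 lower (7.80%), with limma and an adjusted p threshold of 0.05. The median change over all genes tested was 0.02 (log2). Changes of at least 1 on the log2 scale numbered 438 among the higher genes and 401 among the lower, and changes of at least 2 numbered 179 and 76. All 4 csr-1 RNAi libraries lay above all 4 controls for 1131 genes (9.97%) and below them for 1323 (11.7%). When every library was centred on its own median, 965 genes were called higher and 626 lower, so the higher share of the calls went from 47.2% to 60.7%. Leaving out 1 library gave 491 to 1047 higher and 438 to 1112 lower genes: 491 and 570 without control replicate 1, 493 and 438 without control replicate 2, 498 and 579 without csr-1 RNAi replicate 1, and 540 lower genes without csr-1 RNAi replicate 2. The authors' deposited table, made with DESeq, lists 805 higher and 177 lower genes at an adjusted p under 0.05. Of these, 345 were also called here in the same direction, 35.1% of the authors' deposited table and 20.6% of the genes called here.

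The genes that fell were longer than those that rose. The median exon length was 1253 bp for the higher genes, 2165 bp for the lower genes and 1433 bp for all genes tested. Among genes with under 500 bp of exon, 6.10% were called higher and 1.04% lower, with a median change of 0.38 (log2). Among genes of at least 5000 bp, 2.23% were called higher and 16.8% lower, with a median change of −0.65. The libraries did not share this pattern evenly. For genes of at least 5000 bp, the median deviation from the gene's mean over the 12 libraries was 0.41, 0.64, 0.59 and 0.08 (log2) in the controls and 0.48, −0.22, −0.06 and −1.17 under csr-1 RNAi. The csr-1 RNAi library orig thus lay among the controls and library 3 lay lowest. The part of the length trend in each gene group was not tested, but the counts over all genes, of chromosome X and of the gene lists against the control were repeated with each library adjusted for exon length, an alternative chosen after seeing the data. It called 932 genes higher and 833 lower, of which 699 and 647 were also called without the adjustment.

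**Figure D1:**
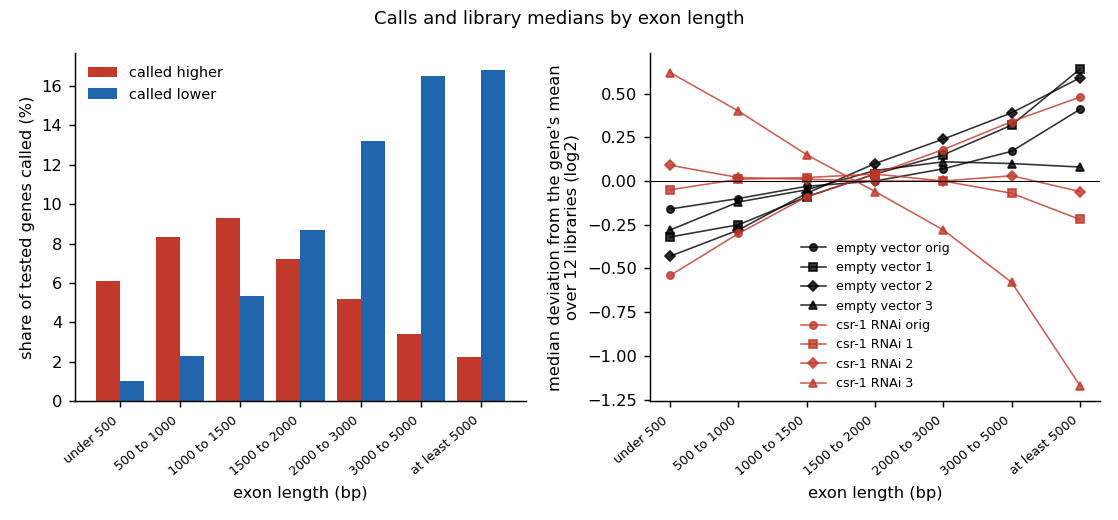
Calls and library medians by exon length. The left panel shows the share of tested genes called higher (red) and lower (blue) in 7 length classes, and the right panel shows, for each control (black) and csr-1 RNAi (red) library, the median deviation from the gene's mean over the 12 libraries on the log2 scale. The share called lower goes from 1.04% to 16.8% with length, and csr-1 RNAi library 3 reaches −1.17 in the longest class.

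Both directions were seen at most control levels, with different balance. The level is the mean of the 4 controls in normalised reads per kilobase of exon. Between 100 and 1000 reads per kilobase, 351 of 2774 genes were lower (12.7%) and 123 higher (4.43%). Between 1000 and 10000, where many genes of the germline machinery lie, 297 of 3333 were higher (8.91%) and 201 lower (6.03%). At 10000 or more, 21 of 227 were lower (9.25%) and 4 higher. Between 10 and 100, 281 of 3301 were lower (8.51%) and 173 higher (5.24%). Under 10, 193 of 1583 were higher (12.2%) and 15 lower, but 629 of these genes passed the low-value filter only through the csr-1 RNAi libraries, and 63.2% of the 193 are among them. Of the 321 genes of that class with at least 10 reads in all 4 P granule RNAi libraries, 43 were higher and 8 lower. When genes kept in that way were sorted by the P granule RNAi level instead of the control level, 13 of 212 were higher (6.13%) and 19 lower (8.96%) under 10 reads per kilobase.

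**Figure D2:**
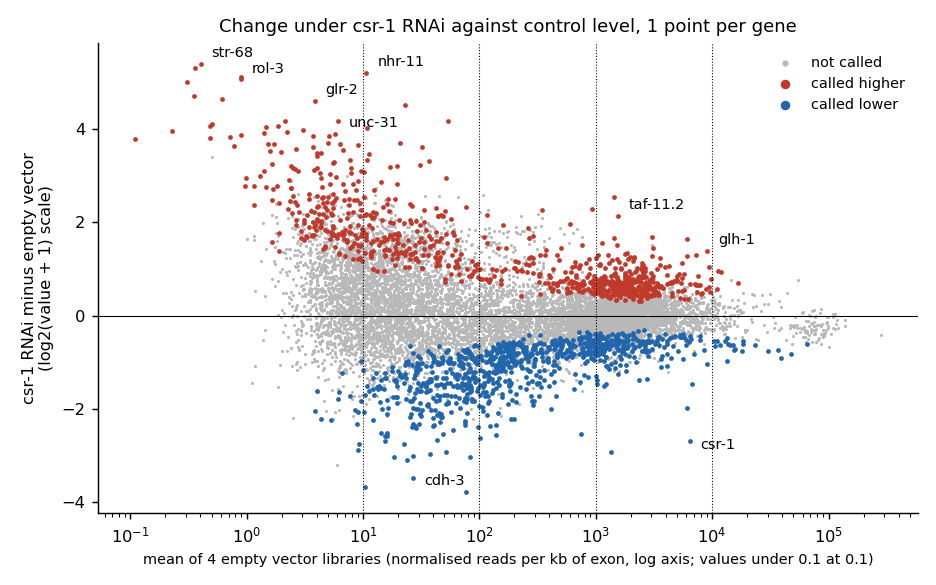
Change under csr-1 RNAi (log2(value + 1) scale) against the control level (normalised reads per kilobase of exon, log axis), 1 point per gene. Red points were called higher and blue points lower. The dotted lines mark 10, 100, 1000 and 10000 reads per kilobase. Of the 1583 genes under 10 reads per kilobase, 193 were called higher and 15 lower.

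Among genes under 10 reads per kilobase the largest rises were of genes almost silent in the control. str-68, a chemoreceptor gene, had 1.62, 0, 0 and 0 normalised reads in the controls and 56.0, 54.8, 47.1 and 52.9 under csr-1 RNAi. rol-3, a receptor tyrosine kinase gene, went from 8.12, 8.37, 4 and 6.92 to 435, 219, 248 and 207 (log2 change 5.12 ± 0.42, limma adjusted p = 3.66e-05). pacl-1 had 0.812, 3.14, 0 and 0 reads in the controls and 83.6, 87.2, 47.1 and 27 under csr-1 RNAi. The groups did not overlap in these 3 genes, but genes of a control level class were named only where that held. With controls this close to 0, the fitted changes of str-68 and pacl-1 depend on the pseudocount and are not given as folds. Both passed the filter on low values only through the csr-1 RNAi libraries, which favours genes that are higher there. The same holds for fbxb-103, hda-11, her-1, lgc-9, mab-3, nhr-112, nhr-158, skr-12, srt-13, str-148, tbx-43, zipt-2.3 and ztf-2, described in later paragraphs. The values of these genes are a description.

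At 10 to 100 reads per kilobase the leading rise was of a transcription factor. nhr-11, a nuclear hormone receptor, had 16.2, 26.2, 17 and 21.7 normalised reads in the controls and 725, 1014, 847 and 555 under csr-1 RNAi, a log2 change of 5.20 ± 0.25 (limma adjusted p = 8.49e-07). It was also higher than under P granule RNAi, by 4.24 (adjusted p = 2.05e-06). droe-4 rose from between 14.7 and 20.3 to between 299 and 630 reads, and gpa-1, a G protein alpha subunit, from 27.7 ± 6.84 to 375 ± 86.7 (SD, n = 4). The strongest falls in this class were of genes for the cell surface and the apical extracellular matrix. cutl-10, a cuticlin-like gene, had 164, 106, 87 and 44.5 reads in the controls and 2.18, 16.2, 7.53 and 3.24 under csr-1 RNAi (log2 change −3.78 ± 0.65, adjusted p = 0.00289). cdh-3, a cadherin, had 322, 233, 396 and 162 against 40, 17.4, 42.4 and 8.63 (log2 change −3.48 ± 0.54, adjusted p = 0.0016). In both genes every control was above every csr-1 RNAi library, which the rule for naming genes by control level required. cdh-3 spans 10252 bp of exon, and its change was −2.67 after the length adjustment. The 8 hypodermis and cuticle markers, of which 5 were tested with 0 called, also varied within groups, summing to 959 to 2280 reads in the controls and 463 to 2630 under csr-1 RNAi, and their part in the fall of cutl-10 was not tested.

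Among genes of 1000 to 10000 reads per kilobase the largest rises included taf-11.2 and unc-85. taf-11.2, a subunit of the general transcription factor TFIID, had 1463, 1382, 1652 and 1932 normalised reads in the controls and 8404, 7668, 6994 and 5333 under csr-1 RNAi (log2 change 2.13 ± 0.17, limma adjusted p = 3.66e-05). unc-85, a histone chaperone of the ASF1 family, had 2969, 3009, 3214 and 2808 against 8400, 9801, 9275 and 11305 (log2 change 1.69 ± 0.16, adjusted p = 7.51e-05). Every csr-1 RNAi library was more than 1 log2 step above every control for both genes. The rule for naming them required that the groups not overlap. Falls in the same class included clp-7, a calpain protease, from 3066 ± 452 to 1109 ± 109 (SD, n = 4), and among genes of 100 to 1000 reads per kilobase wts-1, a kinase of the Hippo pathway, from 377 ± 70.2 to 71.9 ± 14.8, and cpd-1, a carboxypeptidase, from 453 ± 61.2 to 90.4 ± 27.4. The falls at 10000 reads per kilobase or more included abundant RNA-binding proteins. pab-1, the poly(A)-binding protein, fell from 91476 ± 15618 to 47771 ± 2442, and cgh-1, an RNA helicase that represses stored mRNAs, from 108725 ± 13748 to 60711 ± 3444.

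Genes of chromosome X were called lower more often than autosomal genes, a difference given here by its counts. Of 1318 tested X-linked genes, 202 were lower (15.3%) and 26 higher (1.97%), with a median change of −0.32 (log2). Of 9900 autosomal genes, 667 were lower (6.74%) and 764 higher (7.72%), with a median of 0.06. The mean log2 level of the X-linked genes was 6.34, 6.45, 6.39 and 6.48 in the controls and 6.06, 6.19, 6.15 and 6.03 under csr-1 RNAi, so the groups did not overlap. The P granule RNAi libraries had 6.18, 6.30, 6.42 and 6.61 and spanned both. In worms the X chromosome is kept largely silent in much of the germ line and is used more in oocytes, and its tested genes had a median control level of 56.4 reads per kilobase against 331 for the autosomes. Within the same level class the X-linked share was still larger: between 100 and 1000 reads per kilobase, 110 of 465 X-linked genes were lower (23.7%), against 241 of 2309 autosomal genes (10.4%). Between 10 and 100, these shares were 13.4% and 7.50%. With the length adjustment 186 X-linked genes were lower and 32 higher, with a median of −0.22. Without control replicate 2 the lower count was 99, and without csr-1 RNAi replicate 2 it was 117.

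**Figure D3:**
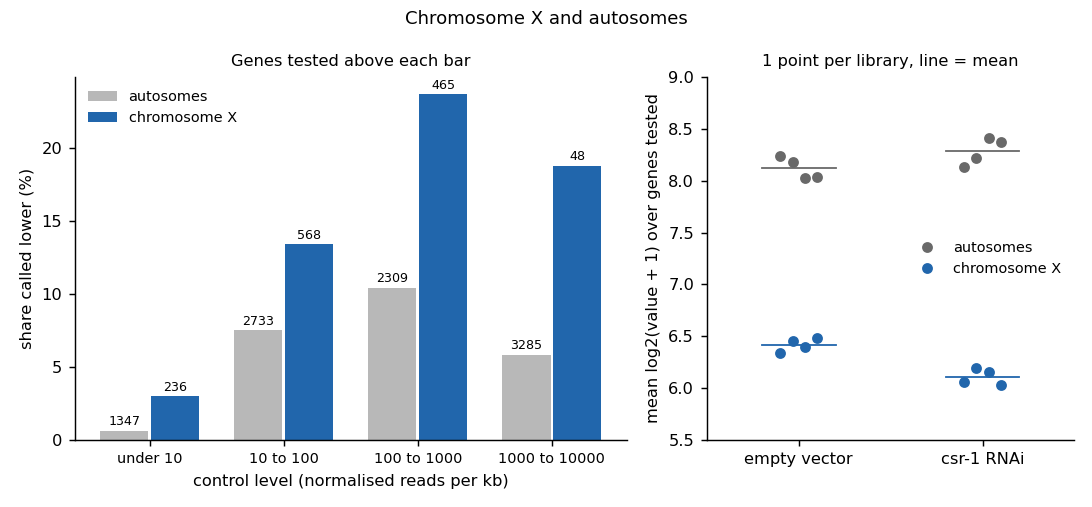
Chromosome X against the autosomes. The left panel gives the share of tested genes called lower by control level (normalised reads per kilobase), with the number of genes above each bar; genes at 10000 or more are not drawn. The right panel gives the mean log2(value + 1) over the tested genes in each library, with a line at the group mean. The X-linked share is 23.7% against 10.4% between 100 and 1000 reads per kilobase.

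X-linked genes that fell included membrane traffic and chromatin genes. tbc-1, a predicted regulator of Rab proteins, had 513, 719, 1045 and 855 normalised reads in the controls and 268, 343, 266 and 284 under csr-1 RNAi (log2 change −1.39 ± 0.21, limma adjusted p = 0.00134). vps-45, a factor for vesicle fusion, had 227, 187, 256 and 249 against 72.7, 107, 67.8 and 112 (log2 change −1.37 ± 0.22, adjusted p = 0.00223). No csr-1 RNAi library reached the lowest control in either gene. sec-16A.2, a coat assembly factor, fell from 1411 ± 155 to 635 ± 201 (SD, n = 4). These 3 are the most reduced of the Rab, Arf and coat proteins, of which 17 of 124 were lower and 4 higher (median −0.12), 9 of the lower ones on chromosome X. Without 1 library the lower count was 7 to 22, with 11 without control replicate 1, 7 without control replicate 2 and 10 without csr-1 RNAi replicate 2. With the length adjustment 6 of the 124 were higher and 13 lower, with a median of −0.01.

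Chromatin modifiers and readers moved in both directions. Of 125 tested genes, 11 were higher (8.80%) and 16 lower (12.8%), with a median of −0.14. All genes tested had shares of 6.98% and 7.80%, so the higher share was near that of all genes. On chromosome X lie 9 of the lower genes and 23 of the tested members. jmjd-3.1, a demethylase of histone H3, had 132, 114, 110 and 52.4 normalised reads in the controls and 27.6, 17.4, 12.2 and 16.2 under csr-1 RNAi (log2 change −2.39 ± 0.42, limma adjusted p = 0.0033). set-6 fell from 109 ± 7.58 to 22 ± 5.92 (SD, n = 4) and set-19 from 230 ± 39.7 to 56.5 ± 18.8. Both carry the SET domain of lysine methyltransferases, and all 3 genes are X-linked. hda-11, an autosomal gene for a histone deacetylase, went the other way, from 3.63 ± 1.1 to 18.6 ± 6.25. The list was made from gene symbol patterns and includes metr-1, methionine synthase, among its lower genes. Higher counts were 6 without control replicate 1, 7 without control replicate 2 and 19 without csr-1 RNAi replicate 3, and the lower count was 10 without control replicate 2. After adjusting for exon length 19 members were higher and 13 lower, with a median of −0.01, and after centring each library on its median 13 were higher and 11 lower.

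Genes for chromosome segregation rose where they moved, with 1 exception. Of 75 tested kinetochore and spindle genes, 15 were higher (20%) and 1 lower, with a median of 0.06 (log2). hcp-3, the centromeric histone H3 variant, had 3179, 2924, 3157 and 3261 normalised reads in the controls and 8026, 8427, 8267 and 9746 under csr-1 RNAi, a log2 change of 1.46 ± 0.18 (limma adjusted p = 0.000391). gpr-1 and gpr-2, regulators of spindle pulling forces, went from 848 ± 82.8 to 2317 ± 141 and from 1275 ± 31 to 3645 ± 195 (SD, n = 4). The spread within each group was small against the difference in all 3 genes. gpr-1 and gpr-2 are near-identical copies, so the split of reads between them is uncertain. klp-18, a kinesin of the meiotic spindle, rose from 7932 ± 1380 to 17395 ± 3019, and klp-16, a second spindle kinesin, from 8363 ± 1238 to 17395 ± 1062. The 1 member that fell was klp-3, a minus-end directed kinesin, from 87.4 ± 21.6 to 16.8 ± 6.35. After adjusting for exon length, 23 members were higher and 1 lower (median 0.23), and with 1 library left out 11 to 21 were higher.

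The drivers of the cell cycle included the mitotic kinase. Of 28 tested cyclins and cell cycle kinases, 5 were higher and 1 lower. cdk-1 had 7733, 8566, 9172 and 9228 normalised reads in the controls and 15936, 21054, 21814 and 28752 under csr-1 RNAi (log2 change 1.31 ± 0.17, limma adjusted p = 0.000664). cya-1, cyclin A, rose from 3793 ± 362 to 5810 ± 631 (SD, n = 4), while cdc-25.2, a phosphatase that activates such kinases, fell from between 766 and 1036 to between 311 and 443. The groups did not overlap for any of the 3. Without 1 library the higher count fell to 2 in the lowest cases, which were control replicate orig, control replicate 1 and csr-1 RNAi replicate 1, and to 3 without control replicate 2. Genes of DNA replication gave few calls, with 1 of 41 higher and 1 lower: mcm-4, a subunit of the replicative helicase, fell from 9471 ± 1353 to 4923 ± 513, and pole-4, a DNA polymerase subunit, rose from 1108 ± 134 to 1936 ± 376.

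Meiotic chromosome genes were called in both directions, the lower ones at about the share of all genes tested. Of 64 tested genes for the meiotic axis, synapsis and recombination, 7 were higher (10.9%) and 5 lower (7.81%), with a median of −0.03 (log2). Over all genes tested the shares were 6.98% and 7.80%. htp-1, a protein of the chromosome axis, had 3500, 4175, 4081 and 3299 normalised reads in the controls and 6580, 8848, 8949 and 12621 under csr-1 RNAi (log2 change 1.27 ± 0.19, limma adjusted p = 0.00142). htp-1 has a near-identical copy, htp-2, so its own level is uncertain. dsb-3, which is needed to form double-strand breaks, rose from 953 ± 201 to 2004 ± 38 (SD, n = 4). pch-2, a checkpoint and remodelling ATPase, fell from 2420 ± 508 to 1452 ± 191. With the length adjustment 17 were higher and 5 lower. Leaving out control replicate orig, 1 or 2 gave 4 higher genes each time, and leaving out csr-1 RNAi replicate 3 gave 11; the lower count was 3, 2 and 2 without control replicates orig, 1 and 2 and 3 without csr-1 RNAi replicate 2.

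**Figure D4:**
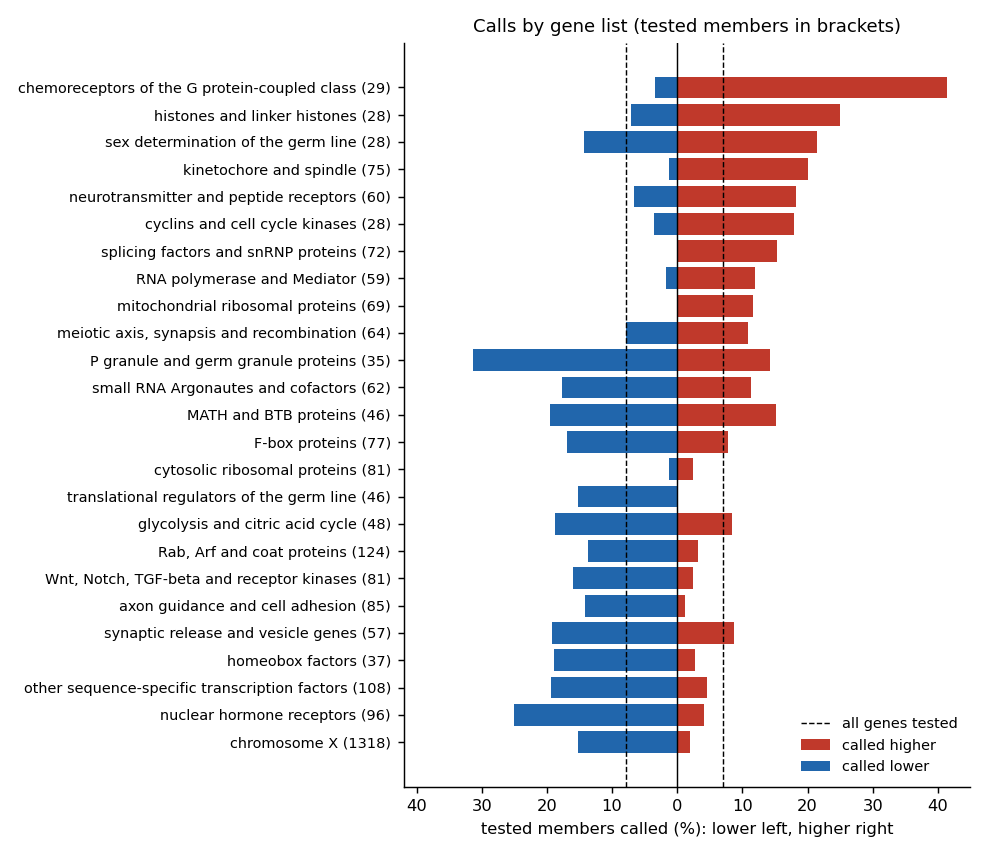
Share of tested members called higher (red, to the right) and lower (blue, to the left) in 25 gene groups, with the number of tested members in brackets. The dashed lines mark the shares of all genes tested, 6.98% higher and 7.80% lower. The kinetochore and spindle list has 20% higher and 1.33% lower, and the nuclear hormone receptors have 4.17% higher and 25% lower.

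The small RNA pathways themselves changed in both directions. Of 62 tested Argonautes and cofactors, 7 were higher (11.3%) and 11 lower (17.7%), csr-1 included, with a median of −0.18 (log2). Over all genes tested the shares were 6.98% and 7.80%. With the length adjustment 9 were higher and 8 lower, with a median of 0.05. nrde-2, a nuclear RNAi factor, had 4436, 5151, 5167 and 3645 normalised reads in the controls and 18363, 14132, 17929 and 7056 under csr-1 RNAi (log2 change 1.56 ± 0.28, limma adjusted p = 0.00411). mut-14, an RNA helicase of the Mutator pathway, rose from 1891 ± 278 to 4099 ± 693 (SD, n = 4), and prg-1, the Piwi Argonaute that binds piRNAs, from 13075 ± 2370 to 21958 ± 2071. Their groups did not overlap, which the rule for naming genes by control level required of nrde-2. Among the lower members was sid-1, the channel that lets double-stranded RNA into cells, with 2874, 2751, 2777 and 2460 reads in the controls and 1514, 928, 1031 and 820 under csr-1 RNAi (log2 change −1.38 ± 0.19, adjusted p = 0.000915). It had 1556 reads on average under P granule RNAi, and the difference between the RNAi groups, −0.55, did not pass the test (adjusted p = 0.0974). sago-1, an Argonaute of the secondary small RNA pathway, fell from 294 ± 26.3 to 99.2 ± 31.1. The lower count was 7 without control replicate 2 and 7 without csr-1 RNAi replicate 2.

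Germ granule genes also moved in both directions. Of 35 tested, 5 were higher and 11 lower (31.4%), with a median of −0.27 (log2). The higher members were led by the Vasa-like helicases of P granules. glh-1 had 22871, 29600, 29360 and 18080 normalised reads in the controls and 74352, 64398, 61186 and 55940 under csr-1 RNAi (log2 change 1.38 ± 0.16, limma adjusted p = 0.000326). glh-4 had 7629, 7620, 7987 and 5344 against 19596, 16243, 17999 and 12856 (log2 change 1.22 ± 0.16, adjusted p = 0.000556). mip-1, a scaffold of germ granules, rose from 4451 ± 184 to 8902 ± 278 (SD, n = 4). All csr-1 RNAi libraries were above all controls in these 3 genes. glh-1 and glh-4 are known targets of the P granule RNAi, so their differences between the RNAi groups are not read as effects of csr-1 RNAi. The lower members included pan-1, a leucine-rich repeat protein, from 457 ± 63.8 to 128 ± 37.6, and meg-2, an X-linked protein of embryonic P granules, from between 899 and 1209 to between 404 and 663. laf-1, a helicase of the same granules, fell from 7084 ± 885 to 3891 ± 240, but was not called after the length adjustment (adjusted p = 0.0807). With that adjustment 8 members were lower, 7 of them also lower without it, and 6 were higher; without control replicate 2 the lower count was 6, and without csr-1 RNAi replicate 1 it was 7.

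Regulators that hold stored mRNAs in check fell where they moved. Of 46 tested translational regulators of the germ line, 0 were higher and 7 lower (15.2%), with a median of −0.12 (log2). gld-1, which represses many oocyte mRNAs, had 39252, 42207, 43501 and 33969 normalised reads in the controls and 26378, 21865, 22479 and 22949 under csr-1 RNAi (log2 change −0.76 ± 0.14, limma adjusted p = 0.00395). daz-1 had 13608, 14599, 14760 and 12947 against 8872, 7973, 7958 and 6958 (log2 change −0.82 ± 0.13, adjusted p = 0.00228). nos-3, a Nanos protein, fell from 9099 ± 901 to 5426 ± 935 (SD, n = 4). Every control lay above every csr-1 RNAi library in these 3 genes. After adjusting for exon length, 3 were higher and 4 lower, and the lower count was 4, 4, 3 and 4 without control replicates orig, 1 and 2 and csr-1 RNAi replicate 1.

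Oocyte and eggshell genes were called in both directions, with 6 of 44 higher (13.6%) and 4 lower (9.09%). All genes tested had shares of 6.98% and 7.80%, so the lower share was near that of all genes. gna-1, an enzyme of the sugar pathway that feeds eggshell chitin, rose from 32.1 ± 6.78 to 101 ± 25.6 normalised reads (SD, n = 4), and egg-4, a pseudophosphatase of the oocyte to embryo transition, from 4204 ± 838 to 8962 ± 267. egg-4 has a near-identical copy, so its own level is uncertain. In the length-adjusted fit 6 were higher and 0 lower.

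Genes of germline sex determination moved in both directions. Of 28 tested, 6 were higher (21.4%) and 4 lower, and 2 of the 6, mab-3 and her-1, passed the filter only through the csr-1 RNAi libraries. fog-3, which commits germ cells to sperm, had 23.6, 46, 34 and 18.8 normalised reads in the controls and 188, 401, 328 and 249 under csr-1 RNAi (log2 change 3.23 ± 0.34, limma adjusted p = 0.000169). mab-3, a transcription factor of male development, rose from 4.28 ± 1.18 to 41.7 ± 22.8 (SD, n = 4), and her-1, the secreted signal for male fate, from 5.15 ± 1.93 to 34.1 ± 7.58. Every csr-1 RNAi library exceeded every control for fog-3. For mab-3 and her-1 the filter favours such a difference, so their values are a description. fog-3 was also higher than under P granule RNAi, by 2.59 on the log2 scale (adjusted p = 0.000923).

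Sperm genes were uneven between the csr-1 RNAi libraries, and few were called. Of 31 major sperm proteins, the cytoskeletal proteins of nematode sperm, 0 were called by limma, although the median change was 1.52 (log2). Their mean log2 level was 7.35, 7.16, 5.53 and 5.76 in the controls and 4.79, 6.77, 9.20 and 10.36 under csr-1 RNAi. The csr-1 RNAi library orig thus lay below all controls and libraries 2 and 3 above all of them. At an unadjusted p under 0.05, 1 were higher and 0 lower, edgeR with TMM factors called 1 higher and DESeq2 17. Without library orig, limma called 16 of the 31 higher. Of 29 genes of small sperm protein families 0 were called by limma (3 higher and 0 lower at an unadjusted p under 0.05), 2 higher by edgeR and 19 by DESeq2, with a median of 1.65. Without library orig 18 of them were called higher. Of 34 sperm function genes 3 were higher and 2 lower, and 7 and 2 without library orig. spe-6, a casein kinase of sperm development, had 207, 189, 260 and 160 normalised reads in the controls and 851, 773, 745 and 744 under csr-1 RNAi (log2 change 1.95 ± 0.16, adjusted p = 3.66e-05). It was high in all 4 libraries, library orig included, and so differed from the major sperm proteins. The rule for naming genes by control level required this of spe-6. Sperm markers summed to 240 to 1007 reads in the controls and 240 to 6638 under csr-1 RNAi, and their part in the change of the sex determination genes was not tested.

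**Figure D5:**
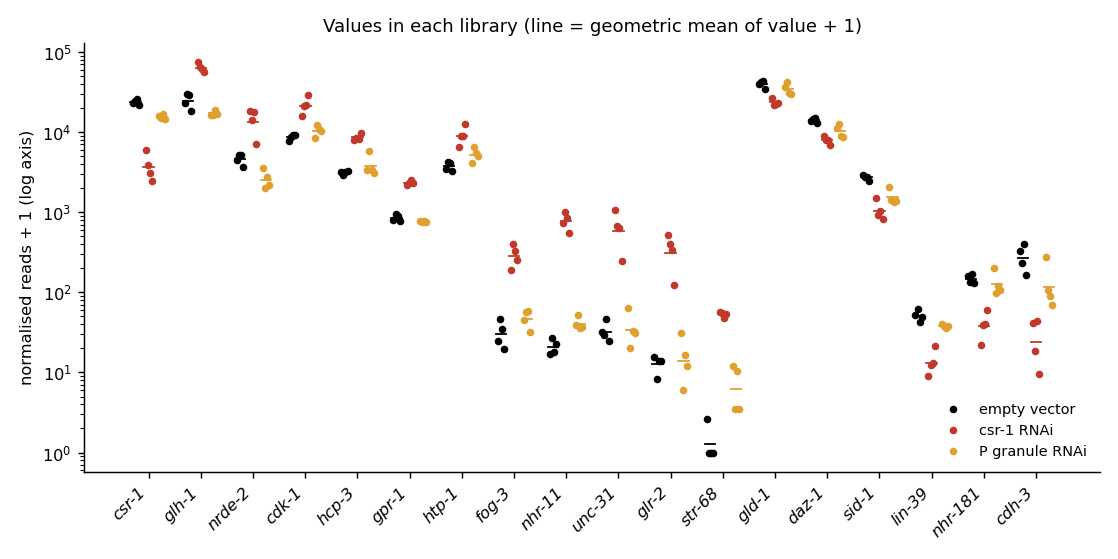
Values of 18 genes in each library of the empty vector (black), csr-1 RNAi (red) and P granule RNAi (orange) groups, as normalised reads + 1 on a log axis, with a line at the geometric mean. csr-1 falls from between 21838 and 25470 to between 2445 and 6025 reads, and nhr-11 rises from between 16.2 and 26.2 to between 555 and 1014.

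Machinery for making and processing mRNA mostly rose where it moved. Of 72 tested splicing factors and snRNP proteins, 11 were higher (15.3%) and 0 lower, with a median of 0.17 (log2). snr-3, a Sm protein of the spliceosome, had 5030, 4818, 4714 and 4386 normalised reads in the controls and 6294, 8356, 8118 and 11967 under csr-1 RNAi (log2 change 0.84 ± 0.19, limma adjusted p = 0.0106). snrp-27 rose from 1663 ± 454 to 2889 ± 496 (SD, n = 4). With the length adjustment 9 were higher and 0 lower. Of 59 tested genes of RNA polymerase, its general factors and Mediator, 7 were higher and 1, mdt-15, was lower, a call lost without control replicate 1 or 2, without csr-1 RNAi replicate 1, after median centring and after the length adjustment. Besides taf-11.2 the higher ones included 2 small subunits of RNA polymerase II, rpb-12, from 490 ± 23.6 to 1027 ± 321, and rpb-9, from 1432 ± 226 to 2807 ± 685. Of the 11 tested genes of the rpb class 4 were higher and 0 lower. These subunits and snr-3 are short genes and were highest in csr-1 RNAi library 3. Leaving out 1 library gave 4 to 16 higher splicing genes, with 4 without control replicates 1 or 2, 7 without control replicate 3, 5 and 6 without csr-1 RNAi replicates 1 and 2; the polymerase list gave 3 to 10, with 4, 3 and 3 without control replicates orig, 1 and 2 and 3 and 4 without csr-1 RNAi replicates 1 and 2.

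Ribosomal proteins of the mitochondrion and of the cytosol differed. Of 69 mitochondrial ribosomal proteins, 8 were higher (11.6%) and 0 lower, with a median of 0.21 (log2), which was 0.08 after the length adjustment with 8 higher. mrps-14 rose from 1954 ± 132 to 3855 ± 732 normalised reads (SD, n = 4). Leaving out 1 library gave 3 to 17 higher genes, with 17 without csr-1 RNAi replicate orig and 5, 4 and 3 without control replicates orig, 1 and 2 and 5, 4 and 5 without csr-1 RNAi replicates 1, 2 and 3. Of 81 cytosolic ribosomal proteins, 2 were higher and 1 lower, with a median of −0.26 and 11 members above 0. In the length-adjusted fit 38 were lower and 1 higher (median −0.49). Their median exon length is 530 bp. Without csr-1 RNAi replicate 3, 1 was higher and 9 lower. Their mean log2 level was 15, 14.98, 14.85 and 14.66 in the controls and 14.08, 14.66, 14.66 and 15.24 under csr-1 RNAi, where library 3 was highest of the 8 and library orig lowest. rpl-41.1, which rose from 1901 ± 249 to 3654 ± 1226, did so against the direction of the list.

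Other genes of protein synthesis and turnover were called in both directions. Over all genes tested the shares were 6.98% higher and 7.80% lower. Of 39 translation factors 0 were higher and 3 lower (7.69%), near the share of all genes. Of 32 aminoacyl-tRNA synthetases 1 was higher (3.12%) and 5 lower (15.6%). With the length adjustment 3 synthetases were higher and 3 lower. aars-2, for alanine, rose from 15540 ± 2430 to 25877 ± 2696 normalised reads (SD, n = 4), and rars-2, for arginine, fell from 2363 ± 380 to 1530 ± 219. The count of lower synthetases was 2 to 7 with 1 library left out: 3, 3 and 2 without control replicates orig, 1 and 2 and 3 without csr-1 RNAi replicate 1 or 2. Of 33 proteasome subunits 3 were higher (9.09%, near the share of all genes) and 0 lower, among them rpn-9, from 9464 ± 1016 to 15149 ± 1665. Of 46 genes for ubiquitin conjugation and cullins 5 were higher (10.9%) and 1 lower (2.17%), and all 5 belong to the skr class of Skp1-related adaptors, of which 18 were tested. skr-12 had 5.69, 6.28, 4 and 4.94 normalised reads in the controls and 35.6, 89.7, 45.2 and 48.5 under csr-1 RNAi, and skr-10 rose from 27.3 ± 7.1 to 92.2 ± 39.2. The skr genes are a family with close copies, so reads may be shared among them. The higher count of the ubiquitin conjugation and cullin genes was 3 and 2 without control replicates 1 and 2 and 2 without csr-1 RNAi replicate 1. After adjusting for exon length 4 of these 46 genes were higher and 5 lower.

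The partners of Skp1 in the same ligases, the F-box proteins, moved in both directions. Of 77 tested out of 311 entries of this large nematode family, 6 were higher and 13 lower (16.9%), with a median of −0.22 (log2). fbxc-43 fell from 131 ± 37.3 to 42.6 ± 11.9 normalised reads (SD, n = 4), and fbxb-103 rose from 3.07 ± 1.93 to 21.7 ± 8.03. With 1 library left out the balance was not stable: 4 were higher and 4 lower without control replicate 1, 4 higher and 5 lower without control replicate orig or 2, and 4 higher and 3 lower without csr-1 RNAi replicate 2. MATH and BTB domain proteins, substrate adaptors of another ligase, gave 7 higher and 9 lower of 46. bath-13 had 112, 104, 80 and 49.4 reads in the controls and 9.45, 6.23, 6.59 and 17.3 under csr-1 RNAi (log2 change −3.04 ± 0.39, limma adjusted p = 0.000556), while bath-30 rose from 1379 ± 120 to 2494 ± 237. The higher count was 2 to 6 with 1 library left out, with 3, 2 and 4 without control replicates 1, 2 and 3 and 3, 4 and 4 without csr-1 RNAi replicates 1, 2 and 3.

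Transcription factors of soma and development mostly fell where they moved. Of 96 tested nuclear hormone receptors out of 274 entries, 24 were lower (25%) and 4 higher (4.17%), with a median of −0.40 (log2) and a median control level of 28.8 reads per kilobase. nhr-181 had 158, 134, 167 and 130 normalised reads in the controls and 21.1, 38.6, 39.5 and 59.3 under csr-1 RNAi (log2 change −1.95 ± 0.32, limma adjusted p = 0.00231). nhr-161 fell from 85.1 ± 25.4 to 16.5 ± 4.98 (SD, n = 4) and nhr-190 from 40.2 ± 10.2 to 9.50 ± 3.65. The csr-1 RNAi libraries lay below every control in these genes. The higher members were nhr-11, nhr-158, from 2.47 ± 1.78 to 17.4 ± 9.43, nhr-112, from 5.46 ± 2.96 to 26.7 ± 10.3, and nhr-119. Against P granule RNAi 16 members were lower and 3 higher. After adjusting for exon length, 18 were lower and 5 higher; without control replicate orig 15 were lower, and without control replicate 2, 13.

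Of 37 tested homeobox factors, 7 were lower (18.9%) and 1 higher. lin-39, a Hox gene of the mid-body, had 50.4, 60.7, 42 and 48.4 normalised reads in the controls and 8, 11.2, 12.2 and 20.5 under csr-1 RNAi (log2 change −1.94 ± 0.31, limma adjusted p = 0.00192). ceh-86 fell from 108 ± 21.1 to 34 ± 12.7 (SD, n = 4). Of 108 other sequence-specific factors, 21 were lower (19.4%) and 5 higher. attf-5 had 270, 286, 351 and 180 reads against 39.3, 49.8, 56.5 and 11.9 (log2 change −2.92 ± 0.46, adjusted p = 0.00195). bed-3 fell from 106 ± 25.3 to 23.3 ± 7.84 and elt-1, a GATA factor of epidermis and sperm genes, from 169 ± 21.7 to 54.3 ± 34.7. Rises were of weakly expressed members: ztf-2 from 5.18 ± 2.94 to 34.2 ± 15.5 and zip-7 from 11 ± 4.17 to 43.1 ± 16.6. tbx-43, a T-box factor, had 2.44, 0, 1 and 0 reads in the controls and 58.2, 44.8, 16.9 and 5.39 under csr-1 RNAi, with library orig highest and library 3 lowest. Its fitted difference of 3.87 (log2) was 4.49 without library 3. The 7 body muscle markers, of which 6 were tested, summed to 1922 to 4476 in the controls and 1576 to 5102 under csr-1 RNAi, with 0 called. The count of other factors called lower was 11 without control replicate 2 and 13 without csr-1 RNAi replicate 2.

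Some neuronal receptor genes rose from near 0. Of 1300 entries for chemoreceptors of the G protein-coupled class only 29 could be tested, and 12 of them were higher and 1 lower. Of the 29, 11 passed the filter on low values only through the csr-1 RNAi libraries, which favours a rise, and they include 9 of the 12. Among the other 18 members 3 were higher and 1 lower. str-148 had 0, 0, 2 and 0 normalised reads in the controls and 53.1, 52.3, 46.1 and 23.7 under csr-1 RNAi. srt-13 had 0, 0, 0 and 0.989 against 19.6, 14.9, 19.8 and 16.2. Both genes passed the filter only through the csr-1 RNAi libraries, so their values are a description. srv-7, an X-linked member at 34.1 ± 3.29 reads in the controls, went the other way to 8.52 ± 3.94 (SD, n = 4). With 1 library left out 9 to 12 were higher, and 1 was higher when genes needed at least 100 reads in 4 libraries.

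Receptors for transmitters and peptides gave 11 higher and 4 lower of 60 tested. Of these, 16 passed the filter only through the csr-1 RNAi libraries, 3 of them among the higher genes, and of the other 44 members 8 were higher and 4 lower. glr-2, a glutamate receptor subunit, had 14.6, 7.33, 13 and 12.9 normalised reads in the controls and 520, 399, 335 and 124 under csr-1 RNAi (log2 change 4.60 ± 0.53, limma adjusted p = 0.000318). ser-4, a serotonin receptor, rose from 6.15 ± 4.35 to 87.4 ± 71.1 (SD, n = 4), and lgc-9, a ligand-gated channel, from 4.04 ± 3.18 to 52.5 ± 17.7. pdfr-1, a receptor for a neuropeptide, fell from 240 ± 39.1 to 66.7 ± 12.8. Library orig was highest for glr-2 and ser-4. The general neuron markers summed to 2940 to 3663 reads in the controls and 2760 to 3179 under csr-1 RNAi, with 0 called among the 7 tested.

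Genes of synaptic release were mixed, with 5 of 57 higher and 11 lower (19.3%). unc-31, which primes dense-core vesicles for release, had 30.9, 28.3, 45 and 23.7 normalised reads in the controls and 1061, 680, 632 and 242 under csr-1 RNAi (log2 change 4.17 ± 0.45, limma adjusted p = 0.000187). It was also higher than under P granule RNAi, by 4.10 (adjusted p = 0.000273). The lower genes are long. rpm-1, a ubiquitin ligase of the presynapse with 11574 bp of exon, fell from 178 ± 62.2 to 32 ± 17.9 (SD, n = 4), and syd-2, a liprin of 3909 bp on chromosome X, from 325 ± 28.3 to 110 ± 40.8. In the length-adjusted fit their changes were −1.72 and −1.28, and the list held 5 higher and 7 lower genes. The higher count was 2 to 5 with 1 library left out, and was 3 or 2 without any library other than csr-1 RNAi replicate 3.

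Before the length adjustment, cell surface and signalling genes mostly fell where they moved. After it their lower shares were near or below that of all genes, which was 7.43% in that fit. Of 85 genes for axon guidance and cell adhesion, 1 was higher and 12 lower (14.1%), with a median of −0.32 (log2). Their median exon length is 3321 bp. After the length adjustment 3 were higher and 5 lower (5.88%), with a median of −0.03. unc-129, a TGF-beta ligand that guides axons, had 23.6, 14.7, 16 and 34.6 normalised reads in the controls and 3.64, 3.74, 3.77 and 7.55 under csr-1 RNAi (log2 change −2.01 ± 0.40, limma adjusted p = 0.00664). Of 81 genes of the Wnt, Notch and TGF-beta pathways and receptor kinases, 2 were higher and 13 lower (16%), with a median of −0.16. After the length adjustment 3 were higher and 7 lower (8.64%), with a median of 0.03. sma-6, a TGF-beta receptor, fell from 73.4 ± 12.2 to 22.8 ± 3.53 (SD, n = 4). Lower counts in the first list were 6 without control replicate 2 and 7 without csr-1 RNAi replicate 1. Those of the second were 8 and 5 without control replicates 1 and 2 and 7 without csr-1 RNAi replicate 1 or 2. Of 25 tested genes of the gonadal sheath and spermatheca, the somatic cells around the germ line, 0 were higher and 4 lower. That list had 2 higher and 0 lower genes after the length adjustment, and lfe-2, a kinase of inositol trisphosphate signalling in these cells, at 162 ± 20.4 and 76.2 ± 25.4 reads, was not called then (adjusted p = 0.0889). It also lost its call without 1 of the 8 libraries.

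Histone genes, whose transcripts are mostly not polyadenylated, were called higher in 7 of 28 cases (25%) and lower in 2, with a median of 0.45 (log2). his-59 had 86.9, 84.8, 116 and 139 normalised reads in the controls and 442, 374, 355 and 375 under csr-1 RNAi (log2 change 1.87 ± 0.36, limma adjusted p = 0.005). his-48 rose from 40.5 ± 11.2 to 132 ± 34.2 (SD, n = 4) and his-60 from 116 ± 41.4 to 296 ± 19.2, with all csr-1 RNAi libraries above all controls in the 3 genes. The rule for naming genes by control level required this of his-59 and his-48. Core histone genes are near-identical copies, so the gene that a read came from is uncertain. The linker histone hil-4 rose at a high level, from 11343 ± 1331 to 21939 ± 3943. The higher count was 4 without control replicate 1 or without csr-1 RNAi replicate 1, and 4 with the length adjustment.

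Metabolic lists gave calls in both directions, some of them at shares below those of all genes tested. Of 48 genes of glycolysis and the citric acid cycle, 4 were higher and 9 lower (18.8%), with a median of −0.11 (log2), and after centring each library on its median 4 were higher and 4 lower. dld-1, a subunit of the pyruvate dehydrogenase complex, had 9658, 8981, 10617 and 7651 normalised reads in the controls and 4933, 5733, 5282 and 5753 under csr-1 RNAi (log2 change −0.76 ± 0.14, limma adjusted p = 0.00471). gpi-1, glucose-6-phosphate isomerase, fell from 5656 ± 544 to 3823 ± 362 (SD, n = 4), and gpd-4, a glyceraldehyde-3-phosphate dehydrogenase, rose from 5031 ± 763 to 8101 ± 631. The lower count was 5, 2 and 2 without control replicates orig, 1 and 2 and 2 and 4 without csr-1 RNAi replicates 1 and 2. Of 21 vacuolar ATPase genes 1 was higher, unc-32, from 6011 ± 717 to 8705 ± 647, and 4 were lower, among them vha-3, from 433 ± 50.9 to 246 ± 42.5. Mitochondrial respiration had 1 of 58 higher (1.72%) and 4 lower (6.90%), and lipid metabolism 5 of 97 higher (5.15%) and 5 lower (5.15%). These shares lie below the 6.98% higher and 7.80% lower of all genes tested. cept-2, a phospholipid synthesis enzyme, fell from 2298 ± 182 to 1414 ± 209. With 1 library left out, the higher lipid genes numbered 9 without csr-1 RNAi replicate orig and 2 or 3 without any other, and the lower ones 2 or 3 without any library but csr-1 RNAi replicates orig and 3.

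Cell death and damage response genes included 1 strong rise. Of 39 tested, 3 were higher (7.69%) and 7 lower (17.9%), against 6.98% and 7.80% of all genes tested. The higher share was thus near that of all genes. egl-1, the BH3-only protein that starts apoptosis, had 70.7, 25.1, 38 and 38.6 normalised reads in the controls and 395, 204, 179 and 129 under csr-1 RNAi (log2 change 2.34 ± 0.42, limma adjusted p = 0.00393). The lowest csr-1 RNAi library was above the highest control. lip-1, a phosphatase that restrains MAP kinase in the germ line, fell from 1960 ± 239 to 998 ± 131 (SD, n = 4). The lower count was 4 without control replicate 2. With the length adjustment 6 members were higher and 8 lower.

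Several lists of somatic tissues and secreted proteins gave few or no calls by limma. Of 41 muscle contractile genes 0 were higher and 2 lower, and of 18 basement membrane genes 0 and 1. Of 129 collagens and cuticlins 5 were higher (3.88%) and 9 lower (6.98%), against 6.98% and 7.80% of all genes tested. Of 29 yolk and intestine genes limma called 0 (0 higher and 1 lower at an unadjusted p under 0.05, 0 by edgeR and 0 by DESeq2), and of 28 transthyretin-like genes 0 (2 and 0, 0 by edgeR and 2 by DESeq2). cutl-23, a cuticlin-like gene, rose from 12.3 ± 3.95 to 193 ± 57.8 normalised reads (SD, n = 4). Of 83 lectins, lysozymes and immune effectors 3 were higher and 1 lower, and clec-126, a C-type lectin, rose from 15.4 ± 4.49 to 148 ± 35.1. Of the solute carriers and transporters tested 6 were higher (4.23%) and 10 lower (7.04%), and 3 were higher without control replicate 2. zipt-2.3, a predicted zinc transporter, rose from 3.40 ± 2.04 to 66.6 ± 25.9, and slc-17.7, a predicted anion transporter, fell from 275 ± 59.8 to 70.9 ± 38.2.

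The changes were compared with those of the second RNAi by testing csr-1 RNAi against P granule RNAi, with 596 genes higher (5.25%) and 484 lower (4.27%). Both comparisons use the same csr-1 RNAi libraries, so their values are given side by side only. The kinetochore and spindle list had 16 higher and 1 lower against P granule RNAi and 15 and 1 against the control. Meiotic genes had 16 higher and 2 lower against P granule RNAi, and 7 and 5 against the control. The P granule RNAi group itself lay below the control, with medians of −0.31 for kinetochore and spindle and −0.35 for meiotic genes (log2). For csr-1 RNAi these medians were 0.06 and −0.03. The higher counts against P granule RNAi are therefore not read as rises under csr-1 RNAi. X-linked genes had 15 higher and 118 lower against P granule RNAi, and splicing genes 5 higher and 0 lower. For cdk-1 the difference from P granule RNAi was 1.04 (limma adjusted p = 0.00316), for hcp-3 1.20 (adjusted p = 0.00178) and for taf-11.2 2.34 (adjusted p = 1.35e-05). For rpb-12 it was 0.20 (adjusted p = 0.648), for snr-3 0.14 (adjusted p = 0.771) and for nos-3 −0.22 (adjusted p = 0.405), so a difference between the 2 RNAi groups was not shown for these. Without csr-1 RNAi replicate 3 this comparison called 1984 genes in all in place of 1080, and without csr-1 RNAi replicate 1, 565.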

How the data were processed

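The series holds RNA-seq of dissected gonads from 3 groups of 4 libraries (empty vector, csr-1 RNAi and P granule RNAi), of which the first 2 were compared. Per the submitters' processing notes, the tools included HTSeq 0.5.4p3, DESeq 1.1.2.1, TopHat2 2.0.8b, CASAVA and SAMtools 0.1.18. A genome build is not given in the sources used here. Deposited signal values are reads per gene divided by a size factor, as read from the values: nearly all were whole multiples of the value of 1 read in their library, within 0.01 read. The deposited fold change and adjusted p-value columns are the authors' own DESeq output and were used only to count shared calls. 0 columns of per-sample values were not used. The 5 summary rows were left out.

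Genes with at least 10 normalised reads in 4 of the 12 libraries were kept, log2(value + 1) was fitted with limma 3.58.1 in R 4.3.3 over all 12 libraries, and the Benjamini-Hochberg method was applied across every gene tested, calling those under 0.05. A change given as log2 is a difference of log2(value + 1), which understates low genes. Alternatives were edgeR 4.0.16 and DESeq2 1.42.0 on the recovered whole reads, other filters and pseudocounts, centring on the library median, a replicate block, leaving out libraries and, chosen after seeing the data, an adjustment for exon length. Depth was 18369939 to 31948734 reads in genes per library, so counting error matters mainly for genes near the filter.

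Gene names and exon lengths came from the reference annotation, and no coordinates are given. The members and the 60 gene lists were chosen with earlier results of these data known. Genes were named by rule: csr-1, the 3 genes with the largest rise and fall in each control level class among called genes whose groups do not overlap, and up to 3 called members per list and direction with the largest change. The rule gave 199 genes. The text describes genes outside the 57 whose call was lost without at least 1 library, except lfe-2, ptc-1 and mdt-15, and names laf-1, whose call was lost with the length adjustment. metr-1, nhr-119 and the targets of the P granule RNAi were named outside the rule, after their values were seen.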

Additional observations from a re-analysis of the deposited data

Results flagged for a closer look

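The spread of 4 libraries was examined in 242 groups, the control and csr-1 RNAi values of the genes named and 3 lists given by library. In 10 of them the highest or lowest library stood further from its neighbour than Dixon's critical value for 4 samples allows, and chance gives about 1 in 20 groups. Control replicate 3 was lowest for pab-1, at 68143 normalised reads, and for glh-4, at 5344, and highest for dsb-3, at 1254. Control replicate orig was lowest for cept-2, at 2026. Of the csr-1 RNAi libraries, replicate 3 was lowest for klp-18, at 12946, and highest for snrp-27, at 3629, and for unc-129, at 7.55. The remaining cases are receptor genes near 0 in the controls, where 1 control library held reads and the other 3 none: srt-13 at 0.989 in replicate 3, str-148 at 2 in replicate 2 and str-68 at 1.62 in replicate orig.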

How the results depend on the processing

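The counts of higher and lower genes kept their size within 1.5 times under edgeR, the other pseudocounts, median centring and the length adjustment. DESeq2 called 1358 genes higher, and the filter at 100 reads left 504. The filter at 100 also left 11 lower nuclear hormone receptors and 1 higher chemoreceptor. With 1 library left out the total ranged from 931 to 2159. The higher genes ranged from 491 to 1047 and the lower genes from 438 to 1112. Lower X-linked genes numbered 99 to 235 and lower nuclear hormone receptors 13 to 23. Higher kinetochore and spindle genes numbered 11 to 21 and higher chemoreceptors 9 to 12. Of these 12 chemoreceptors, 9 passed the filter only through the csr-1 RNAi libraries. The genes kept were the same in every such fit, so the chemoreceptor range is a description only. The comparison with P granule RNAi ranged from 565 to 1984, with 716 and 682 without P granule RNAi replicates 2 and 3, was 411 without the 3 libraries named orig and 2024 with the length adjustment and without csr-1 RNAi replicate 3. The length adjustment gave 23 higher kinetochore and spindle genes and moved ptc-1 to 0.01 (log2, adjusted p = 0.979). Genes under 10 reads per kilobase called higher numbered 124 when sorted by the P granule RNAi level and 58 by the mean of the 12 libraries. The cause of these shifts was not tested. Of 199 named genes 132 were called under every setting and 57 were not called without at least 1 library. Of 893 list counts over 47 lists and directions, 691 stayed within 1.5 times, 26 were above and 176 below. The replicate block called 2082 genes, 964 higher and 1118 lower. Controls and csr-1 RNAi libraries of the same number did not deviate together (correlations of −0.18, −0.47, 0 and −0.26 for 1, 2, 3 and orig). Trends across whole libraries, such as that with exon length, enter these values. They therefore cannot decide whether the names pair the libraries.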
